A study of Mus musculus with 6 samples.

Results

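The genes described here are those of the DNA damage response and homologous recombination, measured on 6 Affymetrix arrays of mouse cells at 3 points between blood progenitors and thymocytes. They were taken from a list of 39 genes, and 35 of them were measured by a probe set linked to that gene alone, out of 19938 genes in all. Trp53, Rnf8, Rbbp8 and Xrcc2 were not analysed here. The probe set for Rnf8 is shared with another gene. HSC were bone marrow cells transduced with the NUP98-HOXB4 fusion and expanded in culture with IL6 and SCF. ProT were such cells grown with IL7 and DLL4, which binds Notch1. DP were double positive thymocytes that formed after ProT cells had been injected into Rag2-/- mice. All 3 populations thus descend from cells given NUP98-HOXB4, which keeps blood progenitors growing in culture, so none is an unmodified stem cell or thymocyte. A Rag2-/- host makes no lymphocytes with rearranged receptors of its own but keeps its myeloid cells and its thymic stroma. The labels give no strain or age, do not say whether animals were pooled, and name no sort of the cells. Each population had 2 arrays, and nothing says that they came from separate cultures or animals, so the p-values rest on the spread among these arrays alone, and that spread may be technical.

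Cells answer a broken or stalled DNA strand through the kinases ATM and ATR, which pass the signal to CHK2 and CHK1 and to p53, the factor that halts the cycle or starts cell death. A double-strand break is repaired either by end joining or, once the DNA has been copied, by homologous recombination, in which the ends are trimmed, a recombinase is loaded with the help of BRCA1, PALB2 and BRCA2, and the intact sister serves as template. Developing thymocytes make such breaks on purpose when RAG cuts their receptor genes, and these are closed by end joining in cells outside S phase. Many recombination genes are transcribed mainly in dividing cells.

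DP carried double positive thymocyte markers and ProT early T cell markers, as their labels call for. Of 7 double positive thymocyte markers measured, all were called higher in DP than in ProT, and of 9 early T cell markers all were called higher in ProT than in HSC. All 8 blood progenitor markers were called lower in DP than in HSC. Over all genes 14.5%, 7.85% and 18.8% were called in these 3 directions, in the same order. ProT kept part of the progenitor markers. From HSC to ProT 3 of the 8 fell (6.9% of all genes), Kit rose by 0.72 ± 0.10, and Cd34 was 12.75 in HSC and 12.69 in ProT. From ProT to DP 4 of the 9 early T cell markers fell and 2 rose, and the progenitor marker Mecom rose by 1.42 ± 0.30. The median signal of an array was between 6.73 and 6.91, and the replicate arrays correlated at 0.991 (HSC), 0.995 (ProT) and 0.997 (DP). Signals are log2 values, so a difference of 1 is a 2-fold change. They are given for each array, or as the mean ± SD of 2 arrays. A gene was called where its p from limma, adjusted by Benjamini and Hochberg's method over the 19938 genes, was below 0.05, and changes carry the standard error of that fit. Signals below 7.17, the median of all gene values, were not shown to lie above background, and the change of a gene with such a mean can be understated. In RNA from a mixed population, fewer cells of a type and less RNA per cell cannot be told apart.

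The group means of 21 of the 35 genes, called or not, went down from HSC over ProT to DP. Between HSC and DP, 23 fell and 5 rose, where 18.8% of all genes were called lower and 16% higher. Their median log2 change was -0.89, against 0.02 over all genes. Along the way, 9 fell and 0 rose from HSC to ProT, where 6.9% of all genes were called lower and 7.85% higher (at an unadjusted p below 0.05 in limma, 1 gene, Msh6, was higher). From ProT to DP 14 fell and 3 rose, where 18.1% of all genes were called lower and 14.5% higher. The median log2 changes of the 2 steps were -0.52 and -0.37, against -0.01 and 0.02 over all genes. With each array centred on its median, higher genes made up 25.9% in place of 44.6% of all calls from ProT to DP and 29.4% in place of 46.0% from HSC to DP. The members then counted 18 lower and 3 higher, and 26 lower and 3 higher. Of all genes, 27.4% were then called lower and 9.57% higher from ProT to DP, and 26.8% and 11.2% from HSC to DP. Without centring, shares were larger among the 10774 genes at or above 7.17 on at least 2 arrays, as all 35 members were. Called lower were 12.0% of these into ProT, 31.7% from ProT to DP and 33.2% from HSC to DP, with 12, 15 and 24 members. Called higher were 12.9%, 21.6% and 24.1%, with 0, 3 and 5 members. Counting genes whose arrays did not overlap between the groups, 26 were lower and 3 higher in ProT than in HSC (27% and 25.1% of all genes), 20 lower and 6 higher in DP than in ProT (32.9% and 36.1%), and 28 lower and 5 higher in DP than in HSC (32.1% and 35.8%). The 3 comparisons share arrays, so their counts are not independent of each other.

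The genes took different courses. Called in either direction were 9 of the 35 from HSC to ProT, 17 from ProT to DP and 28 from HSC to DP, where 14.7%, 32.6% and 34.9% of all genes were called. Rad54l, Blm and Fanca were called lower at both steps. Chek1, Chek2, Brca1, Palb2, Mre11a, Exo1, Rad51b, Fancd2, Parp1 and Parp2 were called lower from ProT to DP and over the whole path. Brca2, Bard1, Rad51c and Mdc1 were called lower from HSC to ProT and over the whole path, but not from ProT to DP. Rad52 and Fancc fell into ProT and then rose in DP above their HSC level, the 2 genes called lowest in ProT. Over all genes, 0.321% took this course, and 0.762% and 0.266% were lowest in ProT with DP not called against HSC or called lower. Called highest in ProT were 0 members. Over all genes these were 0.863%, 2.56% and 0.747%, with DP called lower than HSC, not called and called higher. Mdm4 rose from ProT to DP and over the whole path. Trp53bp1 was called lower from ProT to DP and in neither other comparison. Mdm2 and Msh6 (higher) and Rnf168, Nbn, Xrcc3, Rad54b, Fanci and Polq (lower) were called between HSC and DP but at neither step. The other 6, Atm, Atr, Rad50, Wrn, Fancm and Xrcc1, were called in no comparison.

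**Figure D1:**
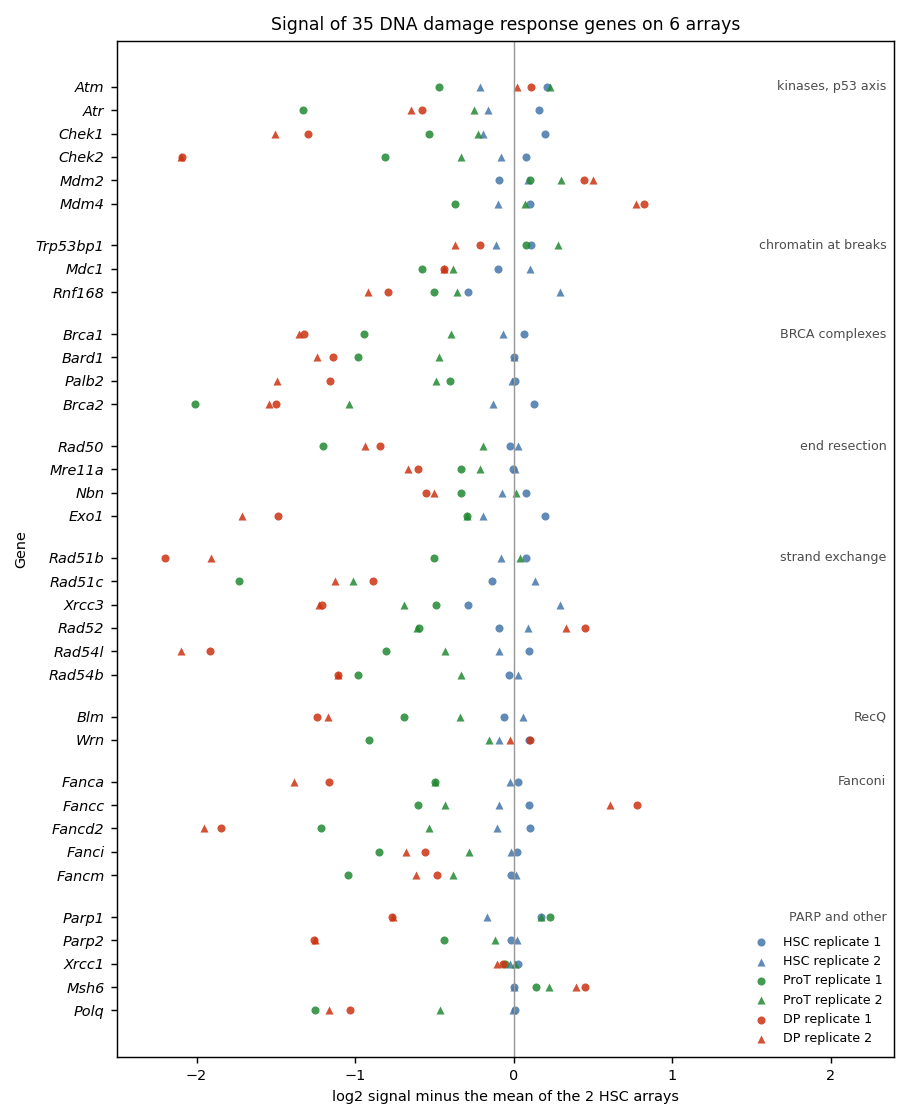
Log2 signal of each of the 35 genes on each of the 6 arrays, minus the mean of the 2 HSC arrays (x axis), with genes in rows grouped by role. Colours mark the population and shapes the replicate. Most DP points lie to the left of 0, Atm (by under 0.2), Mdm2, Mdm4, Rad52, Fancc and Msh6 have both DP points to the right, and the ProT replicate 1 points often lie left of those of replicate 2.

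The 2 ProT arrays differed from each other in these genes. ProT replicate 2 was the higher array at 29 of the 35, by a median of 0.35, and by at least 0.5 at 14 of them (40%). Over all genes replicate 2 was higher at 41.6%, the median gap was -0.03, and 3.4% were higher by at least 0.5. The gaps were widest for Atr (1.08), Rad50 (1.01) and Brca2 (0.97). In HSC the median gap of the 35 genes was -0.04 and in DP -0.08, with gaps of at least 0.5 at 2 genes and 0 genes. The proliferation marker Mki67 showed the same order, at 10.42 in ProT replicate 1 and 11.76 in replicate 2, while the 26 S phase and mitosis genes measured had a median gap of 0.14. What part this gap has in the ProT results was not tested. Counts that involve ProT are therefore also given below with single ProT arrays left out, but not every count for each array.

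**Figure D2:**
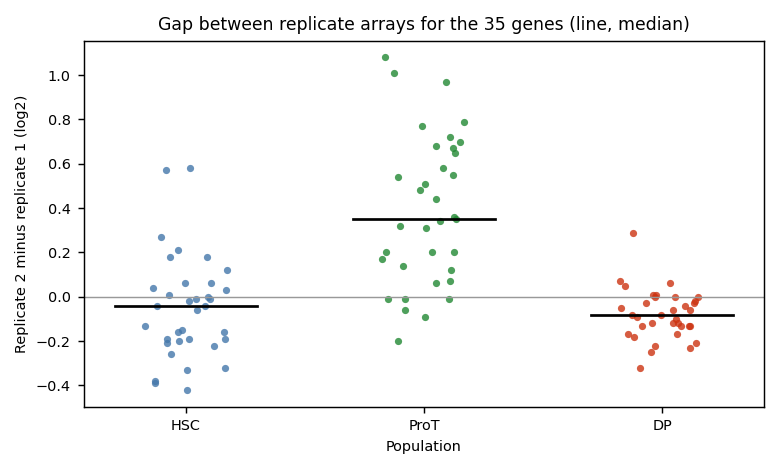
Log2 signal of replicate 2 minus replicate 1 for each of the 35 genes (points) in HSC, ProT and DP, with the median as a line. The medians are -0.04, 0.35 and -0.08, and the ProT points reach 1.08.

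The stretches before the transcription starts are shown for the members that hold an E2F word and for Rad52 and Fancc, which rose in DP, so that the sequences can be set beside the changes. RefSeq (build GRCm38.p6) gave a window of 250 bases before the start for 29 of the 35 genes. E2F factors drive many S phase genes, and their words were searched as TTTCCCGC, TTTCGCGC, TTTGGCGC and TTTGCCGC on both strands. Of the 29 members 4 held one (13.8%), Chek2, Brca2, Bard1 and Mdc1, against 2.16% of 27025 genes with a window of the same length. All 4 were called lower in DP than in HSC, as were 19 of the 29, so most of these 19 held no E2F word. Of the 5 called higher in DP with a window, 0 held one. No gene that fell without the word is shown, so the printed set is not a fair contrast. The CCAAT box, the word CCAAT on either strand, was in 15 of 29 (51.7%) against 37.5% of all genes. The word TTTGAA, the CHR element of many mitosis genes, was in 2 of 29 (6.9%) against 18.3%. The searched E2F words do not overlap the other searched words in the sequences below. A match is a run of letters, not a site shown to be bound, and the absence of a match says only that these letters are not in this window. In the sequences, read 5′ to 3′ towards the start, capitals mark the E2F words and CCAAT boxes, which appear as GCGGGAAA and ATTGG where they lie on the other strand.
Chek2 (chr5:110839733-110839982, plus strand): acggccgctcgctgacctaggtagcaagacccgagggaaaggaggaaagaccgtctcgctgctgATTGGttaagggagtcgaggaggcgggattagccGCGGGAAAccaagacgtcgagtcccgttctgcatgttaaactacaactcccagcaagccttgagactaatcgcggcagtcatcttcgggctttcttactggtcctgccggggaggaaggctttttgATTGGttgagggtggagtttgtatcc
Brca2 (chr5:150522371-150522620, plus strand): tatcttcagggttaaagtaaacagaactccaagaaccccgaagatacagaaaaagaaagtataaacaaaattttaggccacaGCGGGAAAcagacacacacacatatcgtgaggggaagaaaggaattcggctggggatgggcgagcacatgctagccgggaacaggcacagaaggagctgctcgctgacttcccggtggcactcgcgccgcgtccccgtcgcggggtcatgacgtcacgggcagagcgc
Bard1 (chr1:71102973-71103222, minus strand): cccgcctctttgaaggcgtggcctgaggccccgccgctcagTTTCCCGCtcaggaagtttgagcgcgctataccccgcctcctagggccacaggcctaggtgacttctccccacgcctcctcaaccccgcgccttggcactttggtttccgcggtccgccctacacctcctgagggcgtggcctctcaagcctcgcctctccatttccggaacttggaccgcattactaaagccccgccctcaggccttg
Mdc1 (chr17:35841248-35841497, plus strand): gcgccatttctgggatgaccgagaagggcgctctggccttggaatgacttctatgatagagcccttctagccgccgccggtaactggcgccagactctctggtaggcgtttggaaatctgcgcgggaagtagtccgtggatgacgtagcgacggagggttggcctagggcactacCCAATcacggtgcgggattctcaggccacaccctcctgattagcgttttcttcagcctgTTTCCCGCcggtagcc
Rad52 (chr6:119902448-119902697, plus strand): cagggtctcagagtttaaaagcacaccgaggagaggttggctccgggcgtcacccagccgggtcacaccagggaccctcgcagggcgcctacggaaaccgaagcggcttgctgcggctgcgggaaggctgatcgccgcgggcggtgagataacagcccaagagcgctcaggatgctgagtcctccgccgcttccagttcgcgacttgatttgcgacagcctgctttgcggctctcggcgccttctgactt
Fancc (chr13:63431746-63431995, minus strand): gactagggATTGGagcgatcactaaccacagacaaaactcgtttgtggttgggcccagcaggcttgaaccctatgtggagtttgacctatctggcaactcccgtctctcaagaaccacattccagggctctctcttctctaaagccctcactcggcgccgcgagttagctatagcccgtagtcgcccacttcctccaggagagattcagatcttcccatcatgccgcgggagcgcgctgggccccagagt
Counted back from the start, the E2F word began at base -152 in Chek2, -168 in Brca2, -209 in Bard1 and -16 in Mdc1. Chek2 also had a pair of CCAAT boxes, from -186 and -26, and Mdc1 had 1 from -75. The Rad52 window held none of the searched words, and Fancc held 1 CCAAT box, from -242.

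The kinases at the head of the pathway and those below them differed in what was called. Atm, the kinase activated by double-strand breaks, had signals of 9.23 and 8.81 in HSC, 8.55 and 9.25 in ProT, and 9.13 and 9.04 in DP. All 3 groups overlapped, and its HSC to DP change was 0.07 ± 0.25 (adjusted p = 0.877, limma). Its steps were -0.12 ± 0.25 and 0.19 ± 0.25, and their signs turn with single arrays: without ProT replicate 1 the steps were 0.23 and -0.16, without HSC replicate 1 the step into ProT was 0.09, and the HSC to DP change was -0.14 without HSC replicate 2 and -0.09 with each array centred on its median. Atr, the kinase of stalled replication forks, measured 9.42 and 9.10 in HSC, 7.93 and 9.01 in ProT, and 8.68 and 8.61 in DP. The DP arrays lay between the 2 ProT arrays and below both HSC arrays. Its changes did not pass, at -0.79 ± 0.34 into ProT (adjusted p = 0.21), 0.17 ± 0.34 from ProT to DP (-0.36 without ProT replicate 1) and -0.62 ± 0.34 from HSC to DP (adjusted p = 0.23). Without ProT replicate 2 Atr was called lower in ProT than in HSC and higher in DP than in ProT. Over the whole path it was also called lower without either ProT array.

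Both effector kinases fell in DP. Chek1, which restrains the cycle when replication stalls, read 10.74 and 10.35 in HSC, 10.01 and 10.32 in ProT, and 9.25 and 9.04 in DP. The DP arrays lay below all others, and the changes were -1.02 ± 0.17 from ProT (adjusted p = 0.00655, not called without DP replicate 2) and -1.40 ± 0.17 from HSC (adjusted p = 0.00156). Chek2, which carries the ATM signal to p53, read 9.76 and 9.60 in HSC, 8.87 and 9.35 in ProT, and 7.59 and 7.58 in DP. Between HSC and DP it fell by 2.10 ± 0.16 (4.28-fold, adjusted p = 0.000268), of which -1.53 ± 0.16 came between ProT and DP (adjusted p = 0.00114). The step into ProT did not pass at -0.57 ± 0.16 (adjusted p = 0.0763), with no overlap between the groups. It was called without ProT replicate 2. The Chek2 window printed above is one of the 4 with an E2F word.

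The inhibitors of p53 went the other way. Mdm2, the ligase that marks p53 for destruction and is itself a p53 target, measured 10.04 and 10.22 in HSC, 10.23 and 10.43 in ProT, and 10.57 and 10.63 in DP. The 3 groups followed each other without overlap, and the rise from HSC to DP was 0.47 ± 0.11 (1.39-fold, adjusted p = 0.0167), while the steps did not pass at 0.20 ± 0.11 and 0.27 ± 0.11. Mdm4, its partner that blocks p53 directly, measured 10.40 and 10.20 in HSC, 9.93 and 10.37 in ProT, and 11.12 and 11.07 in DP. HSC and ProT overlapped (-0.15 ± 0.16, 0.07 without ProT replicate 1), and DP stood above both, by 0.94 ± 0.16 over ProT (1.92-fold, adjusted p = 0.00633) and 0.79 ± 0.16 over HSC (adjusted p = 0.0111). The rises of Mdm4 in DP, and that of Mdm2, were not called without either DP array. That of Mdm2 was also lost without HSC replicate 1, and with each array centred on its median (0.31).

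**Figure D3:**
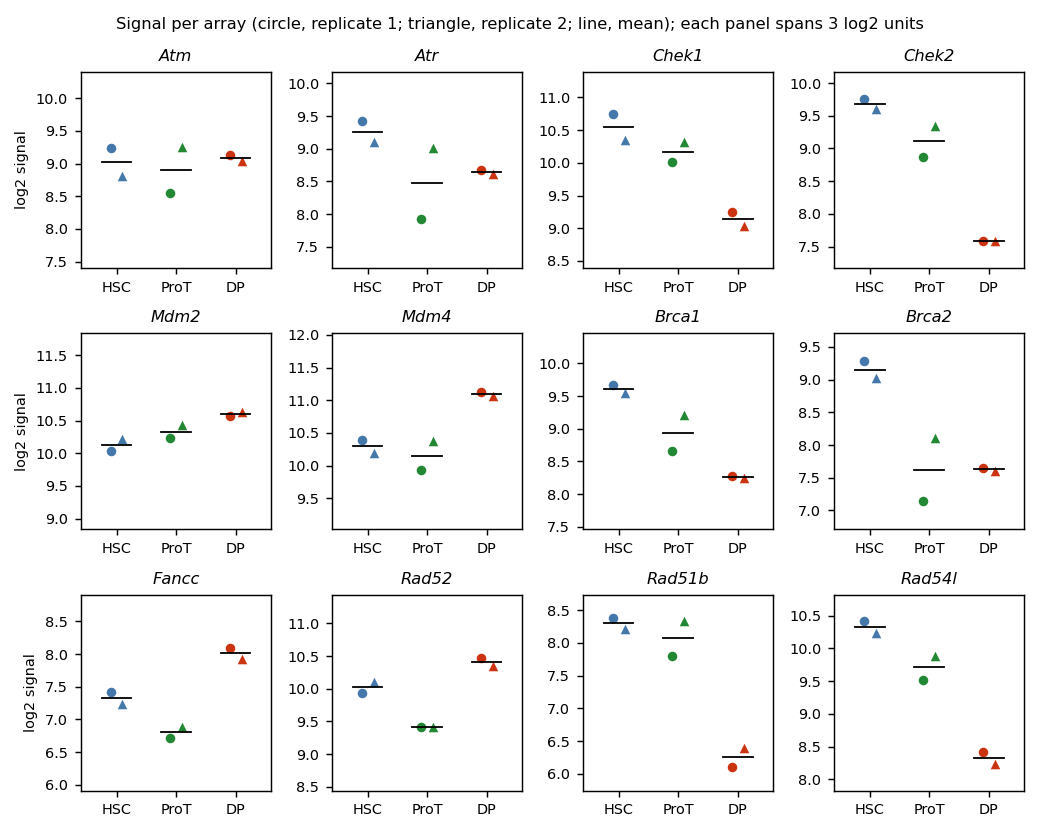
Log2 signal on each array (circle, replicate 1; triangle, replicate 2) of 12 of the genes in HSC, ProT and DP, with the mean of the 2 arrays as a line. Each panel spans 3 log2 units. Chek1, Chek2, Rad51b and Rad54l are lowest in DP, Mdm4 is highest in DP, and Fancc and Rad52 are lowest in ProT and highest in DP.

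Of the proteins that mark chromatin around a break, Mdc1, the adaptor that binds the phosphorylated histone H2AX, fell from 9.79 ± 0.15 in HSC to 9.31 ± 0.14 in ProT (-0.48 ± 0.11, adjusted p = 0.0353) and stayed at 9.35 ± 0.00 in DP (0.04 ± 0.11 from ProT), a fall from HSC to DP of 0.44 ± 0.11 (adjusted p = 0.0237) that was lost without HSC replicate 2 or either DP array. The fall into ProT was not called without HSC replicate 2, ProT replicate 1 or either DP array. Trp53bp1, which favours end joining over resection, was 9.24 ± 0.16 in HSC, 9.42 ± 0.14 in ProT and 8.95 ± 0.12 in DP, and fell between ProT and DP (-0.47 ± 0.12, adjusted p = 0.0314), a call lost without either DP array or ProT replicate 2. Its change from HSC to DP, -0.29 ± 0.12 with no overlap, did not pass (adjusted p = 0.128) but was called after median centring. Rnf168, a ubiquitin ligase that prepares chromatin for it, went from 10.73 ± 0.41 in HSC over 10.30 ± 0.10 to 9.88 ± 0.09 in DP, a fall of 0.85 ± 0.19 from HSC to DP (adjusted p = 0.0171) that was lost without either DP array.

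All 4 genes of the BRCA complexes fell between HSC and DP. Brca1, a ubiquitin ligase that promotes resection and loading of the recombinase, had signals of 9.67 and 9.54 in HSC, 8.66 and 9.21 in ProT, and 8.28 and 8.25 in DP. The groups did not overlap at either step, and its change from HSC to DP was -1.34 ± 0.18 (2.53-fold, adjusted p = 0.00219). The step from ProT to DP was called (-0.67 ± 0.18, adjusted p = 0.0342) but lost without either DP array and at the stricter threshold of 0.01, and the step into ProT did not pass (-0.67 ± 0.18, adjusted p = 0.063), except without ProT replicate 2 and with dim genes filtered out. Bard1, the partner that stabilises BRCA1, gave 9.80 on both HSC arrays, 8.82 and 9.33 in ProT, and 8.66 and 8.56 in DP. It fell by 0.73 ± 0.17 into ProT (adjusted p = 0.0374) and by 1.19 ± 0.17 from HSC to DP (adjusted p = 0.00258). The fall into ProT was not called without either HSC array or either DP array. Its other 2 probe sets gave differences from HSC to DP of -1.5 and -0.75.

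Brca2, which loads the recombinase onto single-stranded DNA, fell into ProT. Its signals were 9.28 and 9.02 in HSC, 7.14 and 8.11 in ProT, and 7.65 and 7.61 in DP. The ProT and HSC arrays did not overlap, but the 2 DP arrays lay between the 2 ProT arrays. The change into ProT was -1.53 ± 0.30 (2.88-fold, adjusted p = 0.0236) and that over the whole path -1.52 ± 0.30 (adjusted p = 0.0108). From ProT to DP it was 0.01 ± 0.30, a value whose sign turns: it was -0.48 without ProT replicate 1, -0.01 without DP replicate 1, -0.10 after quantile normalization, -0.17 after median centring and -0.07 after cyclic loess. The call into ProT was lost without either HSC array or either DP array, and the call over the whole path without either DP array. Palb2, the bridge between BRCA1 and BRCA2, went from 7.94 ± 0.01 over 7.49 ± 0.06 to 6.62 ± 0.23 in DP, below the median of all gene values there. It fell by 0.88 ± 0.12 from ProT (adjusted p = 0.00289) and by 1.32 ± 0.12 from HSC (adjusted p = 0.000477).

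Among the genes of break sensing and end resection, Exo1, the nuclease of long-range resection, fell most. Its signals were 9.76 and 9.37 in HSC, 9.27 on both ProT arrays, and 8.08 and 7.85 in DP. The DP arrays stood apart below all others, with changes of -1.30 ± 0.15 from ProT (2.47-fold, adjusted p = 0.00137) and -1.60 ± 0.15 from HSC (adjusted p = 0.000489). Mre11a, the nuclease that starts resection, fell in small steps from 10.17 ± 0.01 over 9.90 ± 0.09 to 9.54 ± 0.04, with -0.36 ± 0.08 from ProT (adjusted p = 0.0177) and -0.63 ± 0.08 from HSC to DP (adjusted p = 0.00163). The first of these calls was lost without either DP array or ProT replicate 2. Nbn, which ties that nuclease to ATM, fell by 0.53 ± 0.13 from HSC to DP (adjusted p = 0.0235), a call lost without either DP array or HSC replicate 1, and with the mean of its 2 probe sets. Its second probe set differed by -0.05. Rad50, the ATPase of the same complex, did not pass, with 10.51 ± 0.04 in HSC, 9.82 ± 0.72 in ProT and 9.62 ± 0.07 in DP. It was called lower in DP than in HSC without either ProT array, after median centring and with dim genes filtered out.

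The genes of strand exchange split. Rad51b, one of the recombinase's paralogs, measured 8.38 and 8.22 in HSC, 7.80 and 8.34 in ProT, and 6.10 and 6.39 in DP. HSC and ProT overlapped, and DP lay below both and below the median of all gene values, with changes of -1.82 ± 0.20 from ProT (3.54-fold, adjusted p = 0.00125), the largest fall of that step among the 35, and -2.05 ± 0.20 from HSC (adjusted p = 0.000619). Rad51c, another paralog of the same complex, had another course, with 8.83 and 9.10 in HSC, 7.23 and 7.95 in ProT, and 8.08 and 7.84 in DP. It fell by 1.38 ± 0.25 into ProT (2.6-fold, adjusted p = 0.0163), where the DP arrays overlapped the ProT arrays (0.37 ± 0.25, adjusted p = 0.331). Without ProT replicate 2 Rad51c was called higher in DP than in ProT, and its fall into ProT was lost without HSC replicate 2 or either DP array, as was its fall from HSC to DP of 1.01 ± 0.25 (adjusted p = 0.0235). Whether the courses of Rad51b and Rad51c differ was not tested. Xrcc3, also a paralog, went from 9.64 ± 0.40 over 9.05 ± 0.14 to 8.42 ± 0.02, falling by 1.22 ± 0.19 from HSC to DP (adjusted p = 0.00404), with -0.63 ± 0.19 from ProT just short of the threshold (adjusted p = 0.0506). That step was called without either HSC array, after cyclic loess, median centring or quantile normalization, with dim genes filtered out, with a trended robust prior and with only ProT and DP in the fit.

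Rad54l, a motor protein that helps the recombinase invade the template, fell at both steps. It read 10.42 and 10.23 in HSC, 9.52 and 9.89 in ProT, and 8.41 and 8.23 in DP. The groups followed each other without overlap, with -0.62 ± 0.15 into ProT (adjusted p = 0.0433), -1.39 ± 0.15 into DP (adjusted p = 0.00114) and -2.01 ± 0.15 from HSC to DP (4.03-fold, adjusted p = 0.000218). The first of these was not called without either HSC array, ProT replicate 1 or either DP array, with the replicate number as a block, or after median centring or cyclic loess. Its relative Rad54b fell by 1.11 ± 0.20 from HSC to DP (adjusted p = 0.00766), from 9.13 ± 0.04 over 8.47 ± 0.46 to 8.02 ± 0.01, and neither step passed; without either DP array that call was lost.

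Rad52, an annealing protein that acts beside the BRCA2 route, was the exception among these genes. Its signals were 9.93 and 10.11 in HSC, 9.42 and 9.41 in ProT, and 10.47 and 10.35 in DP. ProT lay below HSC and DP above it, with no overlap in any comparison. The changes were -0.61 ± 0.09 into ProT (adjusted p = 0.00921), 0.99 ± 0.09 into DP (1.99-fold, adjusted p = 0.000705) and 0.38 ± 0.09 from HSC to DP (adjusted p = 0.022). The last was not called after median centring (0.22) or without HSC replicate 1 or either DP array. Rad52 was called into ProT under every alternative listed in the closing section, including adjusted p below 0.01.

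Of the RecQ helicases, which unwind recombination intermediates, Blm fell and Wrn did not pass. Blm went from 10.11 ± 0.08 over 9.59 ± 0.25 to 8.91 ± 0.05, with -0.52 ± 0.13 into ProT (adjusted p = 0.0497), -0.69 ± 0.13 into DP (adjusted p = 0.00962) and -1.21 ± 0.13 from HSC to DP (adjusted p = 0.000896). The first step, next to the threshold, was lost under most alternatives, among them each left-out array except ProT replicate 2, and the second without either DP array. Wrn measured 9.49 ± 0.14, 8.96 ± 0.54 and 9.53 ± 0.10, and its change from ProT to DP was 0.58 ± 0.24 (adjusted p = 0.136). Without ProT replicate 2 it was called lower in ProT than in HSC and higher in DP than in ProT.

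The Fanconi anaemia proteins, which clear crosslinks between DNA strands, held both a large fall and the largest rise into DP. Fancd2, the protein whose ubiquitination switches the pathway on, had signals of 9.83 and 9.62 in HSC, 8.51 and 9.19 in ProT, and 7.88 and 7.77 in DP. It fell by 1.02 ± 0.22 from ProT (adjusted p = 0.0164, lost without either DP array) and by 1.90 ± 0.22 from HSC to DP (3.74-fold, adjusted p = 0.00125), and the groups did not overlap at either step. Its partner Fanci fell by 0.62 ± 0.19 from HSC to DP, close to the threshold (adjusted p = 0.0487); the call was lost without either HSC array or either DP array, and with the replicate number as a block, quantile normalization or cyclic loess. Fanca, a subunit of the ligase that modifies FANCD2, fell at both steps, from 9.24 ± 0.03 over 8.75 ± 0.00 to 7.97 ± 0.16 (-0.49 ± 0.10, adjusted p = 0.0215, and -0.78 ± 0.10, adjusted p = 0.00184). The first of these was lost without either HSC array or either ProT array. Fancm, a translocase that recruits that ligase, did not pass, with 8.03 ± 0.02, 7.32 ± 0.47 and 7.48 ± 0.09.

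Fancc, another subunit of that ligase, moved against Fanca in DP. It read 7.42 and 7.23 in HSC, 6.72 and 6.89 in ProT, and 8.10 and 7.93 in DP. The ProT arrays were lowest, under the all-gene median of 7.17, and DP was highest. It fell by 0.52 ± 0.11 into ProT (adjusted p = 0.0325) and rose by 1.21 ± 0.11 into DP (2.31-fold, adjusted p = 0.000717), ending 0.69 ± 0.11 above HSC (adjusted p = 0.00514). The fall into ProT was lost without HSC replicate 1, ProT replicate 1 or either DP array, and with the replicate number as a block. The rise into DP was called under every alternative.

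The remaining genes act in other repair routes. Parp1 and Parp2, the sensors of strand breaks that build chains of ADP-ribose, fell into DP by nearly the same amount, Parp1 by 0.96 ± 0.12 from 10.54 ± 0.04 to 9.57 ± 0.00 (adjusted p = 0.00206) and Parp2 by 0.97 ± 0.12 from 10.04 ± 0.23 to 9.07 ± 0.01 (adjusted p = 0.00175). Xrcc1, the scaffold they recruit, did not pass in any comparison, at 9.18 ± 0.04, 9.15 ± 0.05 and 9.09 ± 0.02 (-0.09 ± 0.07 from HSC to DP, adjusted p = 0.438 in limma). Msh6, which recognises mismatches after replication, gave 9.42 on both HSC arrays, 9.56 and 9.64 in ProT, and 9.87 and 9.81 in DP. The groups did not overlap, and it rose by 0.42 ± 0.07 from HSC to DP (1.34-fold, adjusted p = 0.00633, not called without DP replicate 1), while the steps of 0.18 ± 0.07 and 0.24 ± 0.07 did not pass. Polq, the polymerase of theta-mediated end joining, fell by 1.09 ± 0.24 from HSC to DP (adjusted p = 0.0165), from 8.66 ± 0.01 over 7.80 ± 0.56 to 7.57 ± 0.09, a call lost without either HSC array or either DP array.

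**Figure D4:**
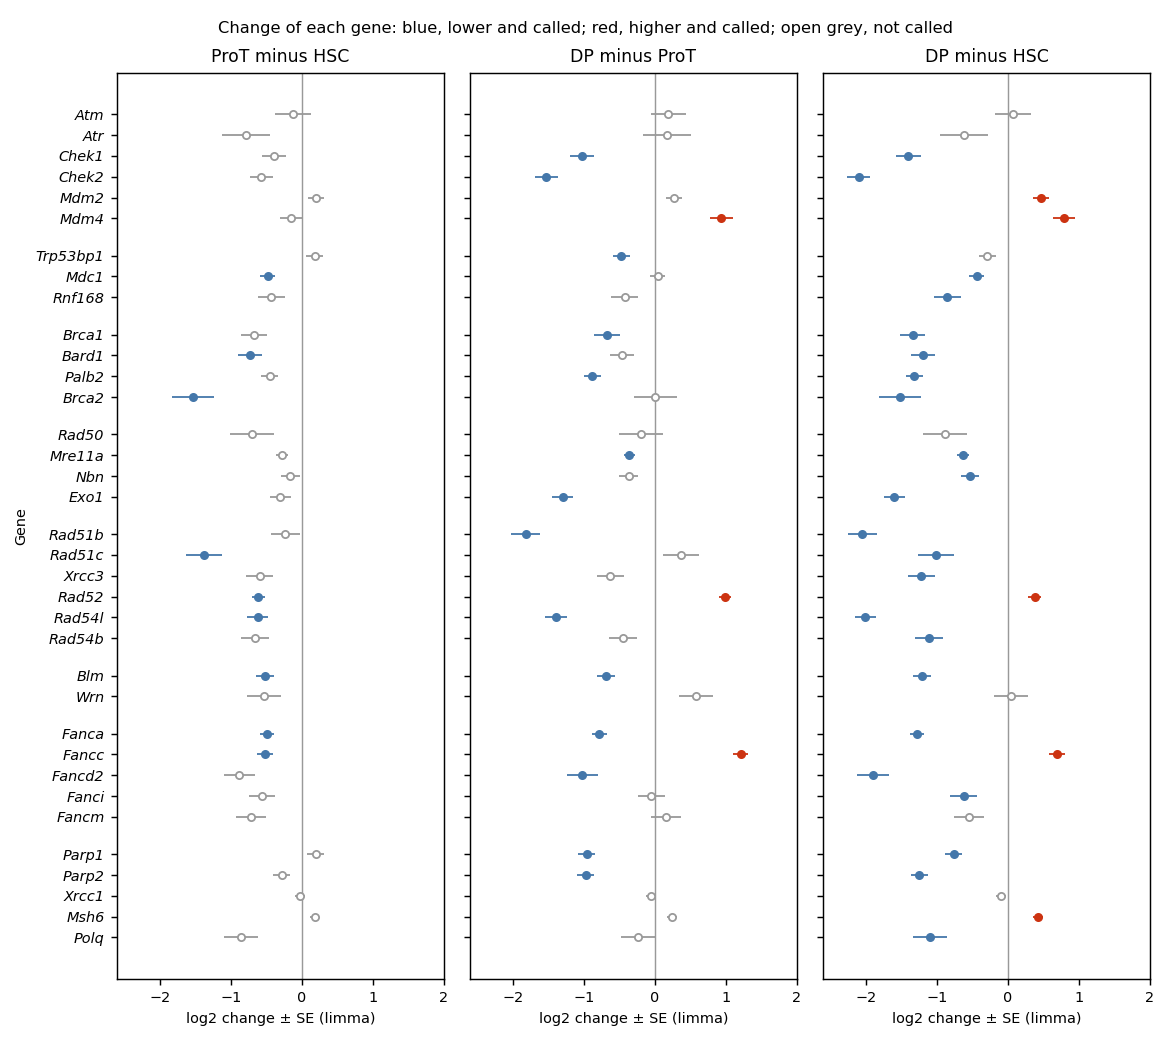
Log2 change of each of the 35 genes with its standard error from limma in the 3 comparisons. Filled blue points were called lower, filled red points higher, and open grey points were not called. In the comparison of DP with HSC 23 points are blue and 5 red, and ProT against HSC has 9 blue and 0 red.

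The counts rest on single arrays to differing degrees, and the share of all genes called moved as well. The 9 falls into ProT became 5 without HSC replicate 1, 2 without HSC replicate 2, 4 without ProT replicate 1 and 3 without either DP array, where 10.0%, 5.97%, 4.28% and 3.91% of all genes were called lower. Without ProT replicate 2 they became 19, with 6.91% of all genes called lower. The 11 genes that this last fit adds include Atr, Brca1, Chek2, Fancd2, Rad50 and Polq. Without HSC replicate 1, 1 gene (Parp1) was called higher in ProT, with 9.97% of all genes. For the step into DP, 14 falls became 9 and 8 without DP replicate 1 and 2, where 11.4% and 10.3% of all genes were called lower. The 3 rises of that step became 7 without ProT replicate 2 (12.1% of all genes), where Atr, Fancm, Rad51c and Wrn were added, and 2 without either DP array (7.36% and 7.44%). Between HSC and DP, 23 falls became 15 without either DP array, where 13.0% and 11.8% of all genes were called lower. The 5 rises became 3 without HSC replicate 1, 1 without DP replicate 1 and 2 without DP replicate 2, where 15.3%, 9.94% and 9.73% were called higher. An array left alone in its group is assumed in these fits to vary like the other groups. Leaving out an array of the population not compared does not touch the change itself. The fit then equals the one with only the 2 populations compared, as for HSC to ProT without either DP array. Calls lost or gained in that way, here and elsewhere in the text, reflect the estimate of the spread and not the level of that array.

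Genes of neighbouring pathways were set beside these. Their lists were written from general knowledge, but with earlier results of these data known. Over all genes, 18.8% were called lower and 16% higher from HSC to DP. From ProT to DP these were 18.1% and 14.5%, and into ProT 6.9% and 7.85%. The shares of all genes move when an array is left out or centred, so list counts under those settings are not to be set beside these. Of 27 other recombination and Fanconi genes, 14 fell and 2 rose between HSC and DP, with a median log2 change of -0.42. Eme1, which forms a nuclease with MUS81, fell by 1.76 ± 0.14 and the nuclease and helicase Dna2 by 1.58 ± 0.09, while Mus81 rose by 0.87 ± 0.09. Of these 27, 7 fell and 4 rose from ProT to DP, and 2 fell into ProT, Dna2 (-0.99 ± 0.09) and Rad18 (-0.70 ± 0.11). The 4 rises (14.8%) and the 2 falls into ProT (7.41%) were near the shares of all genes, 14.5% and 6.9%. These counts move with single arrays. The 14 falls became 8 and 7 without DP replicate 1 and 2, and the 2 rises 1 without HSC replicate 1 or either DP array. The 7 falls became 3 without either DP array, 4 without ProT replicate 2 and 11 without either HSC array (14 after median centring), and the 4 rises 1 without either DP array or after median centring. The 2 falls into ProT became 7 without HSC replicate 1, 1 without ProT replicate 1 and 6 without ProT replicate 2. A list of 13 genes held the checkpoint clamp and mediators that carry ATR signals to CHK1, and also Wee1, Cdc25a, Cdc25c and H2ax. Of these 13, 8 fell and 0 rose between HSC and DP (median -0.57). Wee1, a kinase that holds back mitosis, fell by 1.79 ± 0.14 and the fork protein Tipin by 1.22 ± 0.16, and Rad1, of the clamp itself, did not pass at -0.49 ± 0.18. Of the 13, 5 fell and 0 rose from ProT to DP, and Clspn fell into ProT (-0.55 ± 0.09). That single fall, 7.69% of the list, was near the 6.9% of all genes. At an unadjusted p below 0.05 in limma, still 0 of the 13 were higher in any comparison. The 5 falls became 2 without DP replicate 2 and 9 after median centring, and the count of falls into ProT became 3 without HSC replicate 1 and 0 without ProT replicate 1.

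End joining genes, which also close the breaks of V(D)J recombination, had more rises than falls. Of 8 measured, 6 rose and 1 fell between HSC and DP (median 1.08), where 16% and 18.8% of all genes did. The ligase gene Lig4 rose by 3.53 ± 0.16, to 11.66 on both DP arrays, and the end-binding subunits Xrcc6 and Xrcc5 by 2.23 ± 0.10 and 1.75 ± 0.09. The polymerase gene Poll fell by 1.42 ± 0.16, and Prkdc, the end-bound kinase, did not pass at -0.18 ± 0.24. Into ProT 2 rose, and from ProT to DP 4 rose and 2 fell (1 without either DP array).

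Targets of p53 went both ways, with 4 of 21 higher (19%) and 8 lower (38.1%) in DP than in HSC (median -0.11). Over all genes these shares were 16% and 18.8%. Btg2, an inhibitor of growth, rose by 3.48 ± 0.18, Trp53inp1 by 3.11 ± 0.25, and the death receptor gene Fas by 2.38 ± 0.20, after a fall into ProT of 2.16 ± 0.20. Perp fell by 2.38 ± 0.21 and the stress gene Sesn2 by 1.49 ± 0.12. From ProT to DP 6 rose and 7 fell, and into ProT 3 rose and 4 fell. The 6 rises became 3 without either ProT array, without DP replicate 1 or after median centring, and the 3 rises into ProT became 1 without either DP array. Of 14 base excision and single-strand break repair genes, 5 rose and 8 fell between HSC and DP. Neil1, a glycosylase, rose by 1.61 ± 0.10 and Apex1, the nuclease that cuts at lost bases, fell by 1.39 ± 0.13. In the second step 3 rose and 7 fell, and 1 fell into ProT, Neil3 (-1.07 ± 0.24). That single fall, 7.14% of the list, was near the 6.9% of all genes. The 8 falls became 4 and 5 without DP replicate 1 and 2, the 5 rises became 2 without HSC replicate 2, either DP array or after median centring, and the 7 falls became 4 without ProT replicate 1 and 4 and 3 without DP replicate 1 and 2. The fall of Neil3 was not called without HSC replicate 2, ProT replicate 1 or either DP array.

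S phase and mitosis genes moved in the same direction as most of the damage response genes. Of 26 measured, 20 fell and 1 rose between HSC and DP (median -0.78), 14 fell and 1 rose from ProT to DP, and 3 fell into ProT. Over all genes 18.8% fell and 16% rose, 18.1% fell and 14.5% rose, and 6.9% fell, in the same order. The 20 falls became 13 without DP replicate 2, and the 3 falls into ProT became 8 without ProT replicate 2, 1 without ProT replicate 1 and 0 without HSC replicate 2 or either DP array. The rise of the second step became 2 without either HSC array and 3 without ProT replicate 2, and that from HSC to DP 2 without HSC replicate 2. Their mean signal was 11.32 and 11.37 on the HSC arrays, 10.95 and 11.16 in ProT, and 10.69 and 10.64 in DP. The mean signal of the 35 damage response genes was 9.52 and 9.46 in HSC, 8.83 and 9.22 in ProT, and 8.73 and 8.65 in DP. E2f1, a factor that drives S phase genes, fell by 1.36 ± 0.16 from HSC to DP and Mcm3, of the replicative helicase, by 1.33 ± 0.10, while E2f2, of the same family as E2f1, rose by 1.46 ± 0.09. From HSC to DP 5 of the 26 did not pass, among them Top2a (-0.28 ± 0.21), Tyms (-0.20 ± 0.14) and Mki67 (-0.19 ± 0.40). Mki67 did not pass from ProT to DP either, at 0.87 ± 0.40. The part of this shift in the falls of the damage response genes was not tested.

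Some markers of other cells a thymus can hold were also higher in DP. Over all genes, 14.5% were called higher and 18.1% lower from ProT to DP. From ProT to DP, 5 of 8 macrophage markers rose and 1 fell, with list means of 6.8 and 6.6 in ProT and 7.25 and 7.20 in DP (6.89 and 7.14 in HSC), and 4 of the 8 stayed below the median of all gene values in DP. C1qb, C1qc and C1qa rose to 9.47, 8.22 and 7.23 in DP, while Adgre1 fell by 3.98 ± 0.31 from 11.10 in ProT to 7.11, and Csf1r (7.22 in DP, 10.85 in HSC) and Marco (6.38 in DP) did not pass. The 5 rises became 3 without ProT replicate 2 or either DP array. Of 10 thymic epithelial and stromal markers 7 rose, with list means of 6.57 and 6.49 in ProT and 7.15 and 7.19 in DP (6.63 and 6.53 in HSC). Krt8, a keratin of simple epithelia, rose by 2.13 ± 0.08 to 9.53 in DP, while Foxn1 (6.37) and Psmb11 (6.67), which define thymic epithelium, rose but stayed below the median. The 7 rises became 3 without DP replicate 2. Of 7 B lineage markers 5 rose, with list means of 6.30 and 6.29 in ProT and 7.0 and 7.04 in DP (6.34 and 6.49 in HSC), 6 of the 7 below the median in DP. The 5 rises became 3 without either DP array or after median centring. Of 3 erythroid markers measured 1 rose, with list means of 6.34 and 6.25 in ProT and 7.10 and 7.22 in DP (6.44 and 6.33 in HSC). Whether such cells were present in the DP samples was not tested. Nor was any part they may have in the DP signals of the damage response genes.

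**Figure D5:**
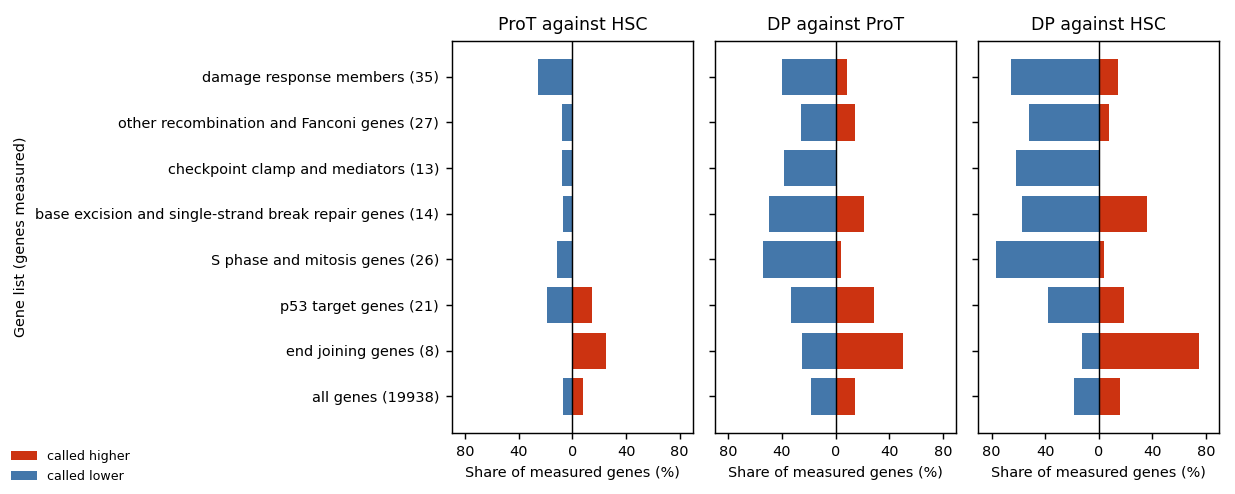
Share of the measured genes of each list called higher (red, to the right) or lower (blue, to the left) in the 3 comparisons, in percent, with all 19938 genes in the lowest row. Between HSC and DP every list drawn except the end joining genes has a longer blue bar than all genes, and the end joining, base excision and p53 target lists have longer red bars.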

How the data were processed

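Total RNA of 6 samples was biotin-labelled and hybridized to Affymetrix arrays, per the labels' protocols. The values are log2 signals deposited as 1 table of 35556 probe sets, made with RMA and Partek per the submitters' processing notes. Their versions and settings: not given in the sources used here. RMA as usually run gives the arrays a shared distribution of probe signals, so a change in total RNA per cell is not seen.

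Of the probe sets, 21789 were linked to exactly 1 gene (19938 genes). For genes with several, the one with the highest mean stood for the gene (Bard1 and Nbn among the members). No filter on signal was applied. All 6 arrays were fitted in limma 3.58.1 (R 4.3.3) with a mean per population and eBayes (3 residual and 2.83 prior degrees of freedom). Adjusted p-values are Benjamini-Hochberg values over all genes of a comparison. Changes of the neighbouring genes are from the same fit.

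The members and gene lists were chosen with earlier results of these data known. Per-array values are given for 8 measured genes chosen for their place in the pathway (Trp53 was the ninth) and, per comparison, the 5 largest called rises and falls without overlap between groups. From each neighbouring list, named genes are among the 3 largest called changes per direction and the 2 largest that did not pass. The gap between the ProT arrays, Mki67 and the cell type markers named were singled out after their values were seen. Promoter windows came from RefSeq (GRCm38.p6). Code was tested on simulated data. Tables were prepared in Python 3.11.15 with pandas 2.3.3. Alternatives are given in the closing section.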

Additional observations from a re-analysis of the deposited data

How the results depend on the processing

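Each result was recomputed after median centring, cyclic loess or quantile normalization, with the replicate number as a block, with genes kept only if at or above 7.17 on at least 2 arrays (all 35 were), with probe sets averaged or the most variable one taken, with a robust trended prior, with only the compared populations in the fit, at an adjusted p below 0.01, with a log2 change of at least 0.5, and without each array. The precision is limited by 2 arrays per population.

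Falls into ProT numbered 9, but 3 with only the populations compared and 1 at an adjusted p below 0.01 (Rad52), where 3.91% and 3.23% of all genes were called lower in place of 6.9%, and from 2 to 19 with an array left out. Rises into ProT ranged from 0 to 1 with an array left out. From ProT to DP the counts with an array left out ranged from 2 to 7 for rises and from 8 to 19 for falls. Rises from HSC to DP were 5, but 3 after median centring, 2 at an adjusted p below 0.01 and 2 with a log2 change of at least 0.5, and from 1 to 5 with an array left out; falls ranged from 15 to 26. Genes lowest in ProT were 2, but 1 with the replicate block, 1 with only the populations compared and 1 at an adjusted p below 0.01, and from 1 to 6 with an array left out. Genes highest in ProT were 0, though this moved without HSC replicate 1. Shares of all genes lowest or highest in ProT were not computed under the alternatives.

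Median centring moved the median of all genes to -0.16 from ProT to DP and to -0.14 from HSC to DP, and the share of higher genes among all calls from 44.6% to 25.9% and from 46.0% to 29.4%. The members' counts were then 3 higher and 18 lower, and 3 higher and 26 lower, where 27.4% and 26.8% of all genes were called lower. Of 105 changes (35 genes, 3 comparisons), 15 of 13 genes turned sign under some alternative, and 0 of these 15 had passed in limma. Beside Atm, Atr, Mdm4 and Brca2, these were from ProT to DP Rad50 (-0.19, 0.31 without ProT replicate 2), Polq (-0.24, 0.16 without it), Fanci (-0.05, 0.24 without it), Fancm (0.16, -0.17 without ProT replicate 1) and Mdc1 (0.04, -0.06 without it), into ProT Rad51b, Nbn and Xrcc1 (0.04, 0.01 and 0.00 without ProT replicate 1), and from HSC to DP Wrn (0.04, -0.12 after median centring). With an array left out, Atm ranged from -0.47 (without ProT replicate 2) to 0.23 (without ProT replicate 1) into ProT and was 0.09 without HSC replicate 1. From ProT to DP it ranged from -0.16 to 0.54 (without ProT replicates 1 and 2), and from HSC to DP from -0.14 to 0.28 (without HSC replicates 2 and 1), with -0.09 after median centring. Atr from ProT to DP ranged from -0.36 to 0.71 and Mdm4 into ProT from 0.07 down to -0.38 (without ProT replicates 1 and 2), and Atr was 0.00 after median centring. Brca2 from ProT to DP ranged from -0.48 to 0.49 (without ProT replicates 1 and 2), was -0.01 without DP replicate 1, and was -0.10, -0.17 and -0.07 after quantile normalization, median centring and cyclic loess. The causes were not tested.

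Same-numbered arrays did not deviate together (correlations of 0.0584, -0.0428 and -0.0222), so the numbers were not used as pairs. With the replicate block the members' falls were 7 into ProT, 14 from ProT to DP and 22 from HSC to DP, and the rises 0, 3 and 5.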
